A study of Mus musculus with 18 samples.

Results

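The genes described here are the 3 D-type cyclins (Ccnd1, Ccnd2 and Ccnd3), cyclin E1 (Ccne1), the CDK inhibitors Cdkn1a and Cdkn1b, Trp53 and its targets Mdm2, Ccng1 and Phlda3. They were chosen by gene symbol, and 10 of the 10 were found among the 13578 genes of the ESC table, the 13518 of the TSC table and the 11538 of the XEN table (14804 genes in any of them). RNA-seq was performed on 18 libraries from mouse embryonic stem cells (ESCs, the wild-type line E14), trophoblast stem cells (TSCs) and extra-embryonic endoderm (XEN) cells. The conditions for each cell type were normoxia, at 20% oxygen, and 2 or 7 days of hypoxia, at 2% oxygen, with 2 replicates of each. ESCs were grown on gelatin without feeders, TSCs with fibroblast feeder cells, and XEN cells in medium partly conditioned on fibroblasts, so a TSC library can hold RNA of feeder cells. The methods call the replicates biological without saying whether they were separate cultures, and p-values measure only the spread between these libraries.

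D-type cyclins bind Cdk4 and Cdk6 and start the phosphorylation of the retinoblastoma protein, after which cyclin E with Cdk2 drives entry into S phase. Cdkn1a (p21) and Cdkn1b (p27) are inhibitors of these kinases. Trp53 encodes p53, a transcription factor activated by DNA damage and other stress. Among its best known targets are Cdkn1a, Mdm2, which encodes the ligase that degrades p53, Ccng1 (cyclin G1), which acts on p53 and Mdm2 in a feedback, and Phlda3, an inhibitor of Akt. Mouse ESCs are known for a short G1 phase.

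The members lie on 6 chromosomes of the mouse genome (mm10, GRCm38). Ccnd1 spans chr7:144929931-144939925 and Ccne1 chr7:38097984-38107534, both on the minus strand. Ccnd2 spans chr6:127125162-127152193 on the minus strand and Cdkn1b chr6:134920401-134925513 on the plus strand. Cdkn1a (chr17:29090976-29100727) and Ccnd3 (chr17:47505051-47599691) are on the plus strand. Trp53 (chr11:69580359-69591873) is on the plus strand, and Ccng1 (chr11:40748552-40755311) and Mdm2 (chr10:117688875-117710758) are on the minus strand. Phlda3 spans chr1:135766119-135769136 on the plus strand. Other annotated genes overlap Ccnd1, Ccnd2, Ccnd3 and Cdkn1a on the opposite strand, and whether reads were counted by strand is not given in the sources used here, so reads of those 4 cannot be told apart from reads of their antisense neighbours.

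Promoter sequences of RefSeq (GRCm38.p6, 300 bases each, from 250 before to 50 after the start) matched 8 of the 10 members, all but Ccnd1 and Ccnd2, with 10 promoters between them. They were searched on both strands for the consensus decamer of p53, which is a half-site of its element. ACGTG and GCGTG were searched too, the core letters of the element that the hypoxia-inducible factors bind. The decamer reads the same on both strands, a CACGTG holds ACGTG on both strands and counts 2 times, and in the members no decamer overlapped a core. The p53 decamer was found in the promoters of 4 members (Cdkn1a, Mdm2, Ccng1 and Trp53) and in 8.36% of all 32851 promoters of this length. The stretches that hold it are shown because 3 of these genes varied together between libraries, with the decamer in capitals. They are from chr17:29090881-29090962 (plus strand) for Cdkn1a, chr10:117710910-117710969 (minus strand) for Mdm2, chr11:40755437-40755496 (minus strand) for Ccng1 and chr11:69580259-69580318 (plus strand) for Trp53.
Cdkn1a: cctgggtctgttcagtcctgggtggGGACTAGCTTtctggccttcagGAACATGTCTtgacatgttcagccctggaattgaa
Mdm2: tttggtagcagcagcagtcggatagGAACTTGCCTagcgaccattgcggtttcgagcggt
Ccng1: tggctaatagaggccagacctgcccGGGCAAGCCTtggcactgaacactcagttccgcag
Trp53: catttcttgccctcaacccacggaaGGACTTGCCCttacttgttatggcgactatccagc

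The Cdkn1a promoter shown held the decamer 2 times, starting 73 and 51 bases before its start of transcription. The other Cdkn1a promoter (chr17:29093519-29093818) held none. The other 3 genes held it 1 time, at 186 (Mdm2), 185 (Ccng1) and 75 (Trp53) bases before the start. ACGTG or GCGTG on either strand was found in 43.8% of all promoters and in those of 7 members, so its presence sets no member apart. The promoter of Ccne1 held 4 such cores, and 3.86% of all promoters held 4 or more. They lie between 248 and 151 bases before the start, in capitals in the stretch chr7:38107622-38107740 (minus strand), which is shown because Ccne1 was lower in hypoxia in most comparisons.
Ccne1: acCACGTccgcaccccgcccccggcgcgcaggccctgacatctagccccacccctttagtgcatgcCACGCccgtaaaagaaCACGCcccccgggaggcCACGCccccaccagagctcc
A match describes these letters and is not a measurement of binding.

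The authors deposited TPM (transcripts per 1000000). These values were divided by the distance between the ends of a gene, which counts its introns and understates genes with long introns, and levels of different genes are therefore compared on TPM rescaled here by exon length. Between 35592641 and 75204029 reads per library were recovered from the values, and the members held between 113 and 63730 reads in a library. ESC and XEN marker genes were above 1 TPM in every library of their own cell type, 7 of 7 each, and so were the 6 TSC markers in TSCs. The summed TPM of 12 fibroblast feeder markers was 31.3 to 61.5 in ESCs, with 8 in the table, and 9.54 to 28.7 in XEN cells, with 4 in the table. In TSCs all 12 were in the table and the sum was 3692 and 485 in normoxia. It was 545 and 2050 after 2 days of hypoxia and 816 and 442 after 7 days. The first normoxic and the second day 2 TSC library thus stood apart. Of 8 genes known to respond to hypoxia, 7 had higher libraries without overlap in ESCs and in XEN cells, on each of the days, and 8 had them in TSCs on day 2. On day 7 in TSCs only 4 of 8 did, and Pdk1, which restrains the entry of pyruvate into mitochondria, was at 15.5 and 14.5 TPM in normoxia, 89.6 and 82.0 after 2 days and 15.6 and 15.2 after 7 days, so the day 7 TSC libraries were at the normoxic level of this gene.

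Trp53, Ccne1 and Ccng1 were the most abundant members in normoxic ESCs, at 604 ± 20.2, 537 ± 3.41 and 283 ± 10.7 exon-length TPM (SD, n = 2), and Cdkn1a, Cdkn1b and Ccnd2 the least abundant, at 38.0 ± 1.08, 19.3 ± 0.473 and 16.1 ± 2.75. In ESCs no neighbours in this order overlapped. In normoxic TSCs, Ccng1 (933 ± 199), Phlda3 (595 ± 76.4) and Mdm2 (516 ± 157) led, ahead of Trp53 at 326 ± 2.15, and Cdkn1b was lowest at 21.2 ± 5.53. Phlda3 and Mdm2 overlapped there, as did each neighbouring pair from Ccne1 over Cdkn1a, Ccnd1 and Ccnd2 to Ccnd3. In normoxic XEN cells, Ccng1 (959 ± 190) and Phlda3 (451 ± 134) led and Ccnd1 (9.84 ± 4.25) was lowest. Ccnd2, Cdkn1a and Mdm2 overlapped with their neighbours in XEN cells, and so did Ccne1, Trp53, Ccnd3 and Cdkn1b. The tables of the cell types were normalized separately, so their levels are set side by side without a test.

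**Figure D1:**
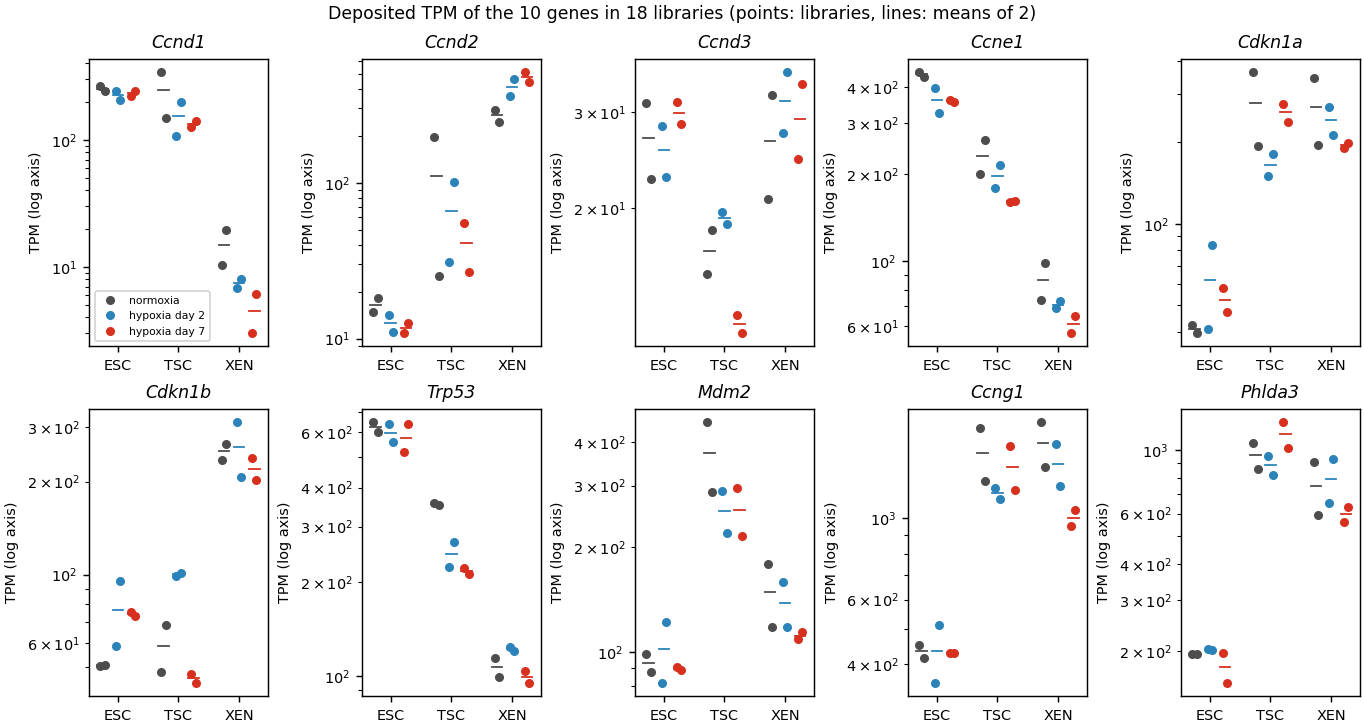
TPM as deposited (log axis) of the 10 genes in normoxia (grey), day 2 (blue) and day 7 (red) of hypoxia in ESCs, TSCs and XEN cells. Points are libraries and lines are means of 2. Ccnd1 is lowest in XEN cells (3.0 to 19.5 TPM) and Ccnd2 highest there (245 to 512), and the 2 day 2 TSC libraries of Cdkn1b sit at 99.1 and 101, above the other TSC libraries.

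Ccnd1 had the largest share of D-type cyclin mRNA in each ESC and TSC library, and Ccnd2 in each XEN library. On exon-length TPM, Ccnd1 made up 56.2% to 63.4% of the summed D-type cyclin mRNA in ESC libraries and Ccnd3 30.1% to 40.1%, with Ccnd2 at 3.69% to 6.49%. In XEN libraries Ccnd2 made up 64.4% to 84.4% and Ccnd1 0.365% to 3.78%. TSC libraries held all 3, Ccnd1 at 43.2% to 59.2%, Ccnd2 at 12.4% to 38.8% and Ccnd3 at 11.3% to 40.1%. The TSC share of Ccnd2 was 38.8%, 31.6% and 28.1% where the feeder markers summed to 3692, 2050 and 816 TPM. It was 12.4% to 16.7% where they summed to 442 to 545. The part of feeder RNA in these shares was not tested. The ranges of Ccnd2 share did not overlap between the cell types. With the deposited TPM, Ccnd3 would make up only 7.99% to 11.8% in ESCs, because its span is 10.8 times its exon length.

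**Figure D2:**
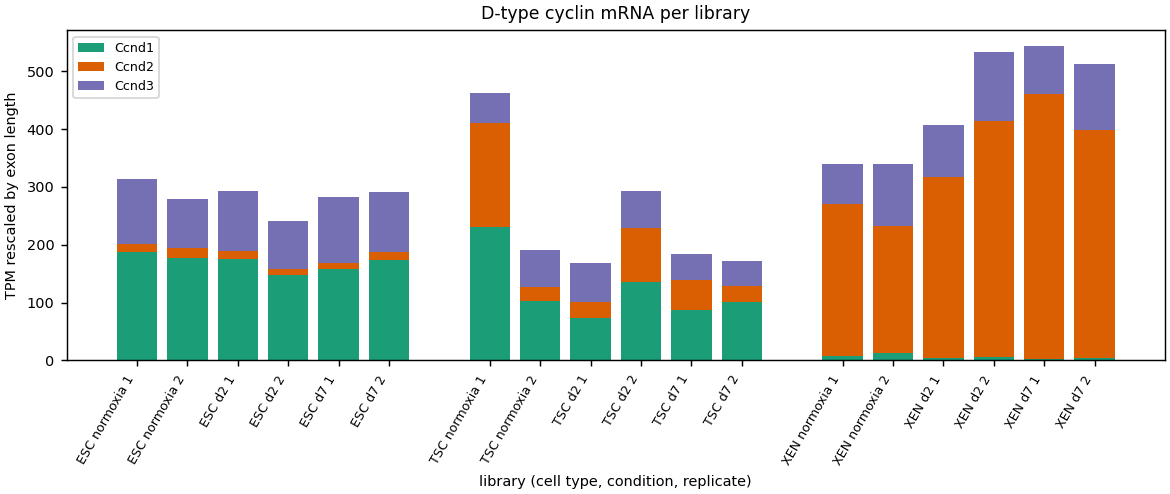
Exon-length TPM of Ccnd1, Ccnd2 and Ccnd3, stacked for each of the 18 libraries by cell type, condition and replicate. ESC bars are mostly Ccnd1 and Ccnd3, XEN bars mostly Ccnd2, and the sum in XEN cells runs from 340 to 544. The first normoxic TSC library has the tallest TSC bar, at 462.

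In hypoxic XEN cells, Ccnd1 was lower and Ccnd2 higher than in normoxia. Ccnd1 was at 10.4 and 19.5 TPM in normoxia, 6.86 and 8.05 after 2 days and 3.0 and 6.06 after 7 days. All 4 hypoxic libraries were below the normoxic ones, and the day 7 libraries were below those of day 2. Day 7 differed from normoxia by -1.62 ± 0.39 (SE) on the log2 scale, and the adjusted p of limma was 0.32. Ccnd2 was at 295 and 245 TPM in normoxia, 362 and 459 after 2 days and 512 and 442 after 7 days. All hypoxic libraries of Ccnd2 were above the normoxic ones, and day 7 was higher by 0.82 ± 0.18 on the log2 scale (adjusted p = 0.29). Neither gene passed the test. The log2 fold change of Ccnd1 was -2.06 without the first normoxic XEN library and -1.18 without the second. Ccnd3 was at 20.8 to 35.6 TPM in XEN cells with overlapping libraries in each comparison.

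In ESCs, Ccnd2 was at 14.8 and 18.3 TPM in normoxia, 14.1 and 11.02 after 2 days and 10.8 and 12.6 after 7 days, the opposite order from XEN cells. Its hypoxic libraries were below the normoxic ones on both days, with log2 fold changes of -0.39 ± 0.19 and -0.48 ± 0.19 (adjusted p = 0.97 and 0.56). Ccnd1, the predominant D-type cyclin of ESCs, was at 264 and 242 TPM in normoxia, 242 and 208 after 2 days and 223 and 243 after 7 days. Its day 7 libraries overlapped with normoxia.

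In TSCs, Ccnd2 was at 196 and 25.4 TPM in normoxia, 30.8 and 100 after 2 days and 55.4 and 26.8 after 7 days, and no 2 conditions were separated. The 3 libraries highest in Ccnd2 were the 3 highest in feeder markers. Without the first normoxic library, the log2 fold change of Ccnd2 turned from -0.34 to 1.12 on day 2 and from -0.87 to 0.59 on day 7. Ccnd1 was at 342 and 149 TPM in normoxia, 108 and 199 after 2 days and 127 and 140 after 7 days, and its log2 fold change on day 7 went from -0.76 to -0.16 without that library. The part of the feeder markers in these values was not tested, and in bulk RNA fewer cells of a type and less RNA per cell cannot be told apart. Ccnd3 did not follow the feeder markers, at 15.2 and 18.3 TPM in normoxia, 19.7 and 18.7 after 2 days and 12.7 and 11.8 after 7 days. Its day 7 libraries were the lowest, with a log2 fold change from day 2 of -0.63 ± 0.21 (adjusted p = 0.11), or -0.35 with median-ratio scaling.

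**Figure D3:**
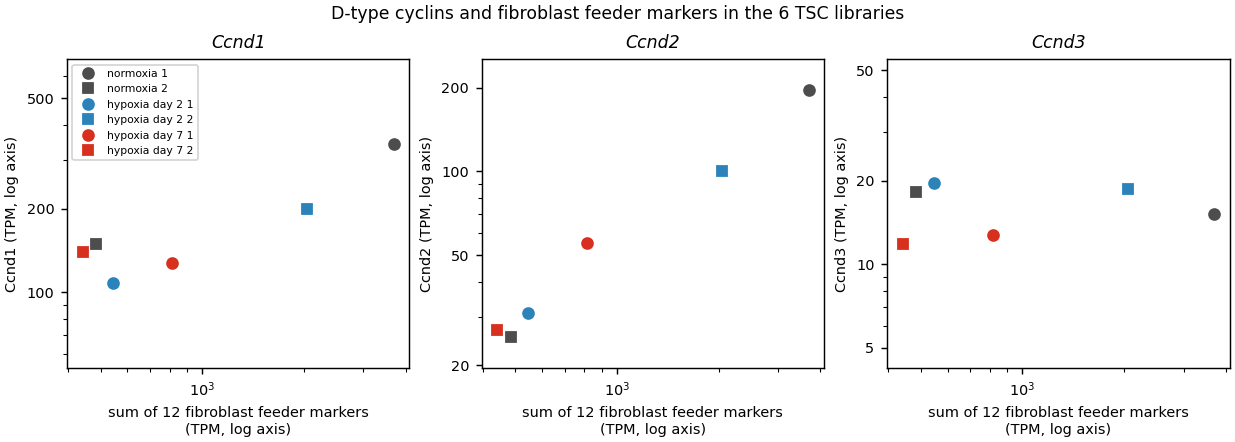
TPM of Ccnd1, Ccnd2 and Ccnd3 (log axes) against the summed TPM of 12 fibroblast feeder markers (log axis) in the 6 TSC libraries, coloured by condition, with circles for replicate 1 and squares for replicate 2. Ccnd2 is highest, at 196, where the feeder sum is 3692, and Ccnd3 is lowest in the 2 day 7 libraries, at 12.7 and 11.8.

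Ccne1, the partner of Cdk2 at the entry into S phase, was lower in hypoxia in all 3 cell types. In ESCs it was at 450 and 433 TPM in normoxia, 397 and 326 after 2 days and 359 and 355 after 7 days. In TSCs it was at 200 and 262, then 179 and 215, then 161 and 162. In XEN cells it was at 73.8 and 99.1, then 68.8 and 72.8, then 56.5 and 64.8. The hypoxic libraries lay below the normoxic ones without overlap in 5 of the 6 comparisons with normoxia, all but day 2 in TSCs. On day 7 the log2 fold changes of Ccne1 were -0.30 ± 0.14 (ESCs), -0.50 ± 0.20 (TSCs) and -0.50 ± 0.18 (XEN cells) (adjusted p = 0.62, 0.45 and 0.51). None passed the test. The sign of each comparison with normoxia held in 18 of 18 alternatives, but this adds no support. Where libraries do not overlap, leaving 1 out cannot turn the sign, and several alternatives leave the fold change as it was. The size of the day 7 value of Ccne1 was smaller without the second normoxic library, at -0.31 in TSCs and -0.28 in XEN cells, and in TSCs it was also -0.31 with median-ratio scaling.

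Cdkn1b in TSCs was the single member that passed the test in any comparison. It was at 48.4 and 68.6 TPM in normoxia, 99.1 and 101 after 2 days and 47.6 and 44.5 after 7 days. Both day 2 libraries were above all others and the day 7 libraries were below those of normoxia. From day 2 to day 7 it fell by 1.11 ± 0.21 on the log2 scale (2.16-fold, limma adjusted p = 0.033), while the step from normoxia to day 2 was 0.79 ± 0.21 (adjusted p = 0.23). The call was lost without the first day 2 library (adjusted p = 0.18) and without either day 7 library (adjusted p = 0.11 and 0.20), with the log2 fold change between -1.16 and -1.07. The median log2 fold change of all genes in this comparison was -0.24, and with median-ratio scaling, which sets it near 0, the change of Cdkn1b was -0.83 (adjusted p = 0.083).

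Other markers moved with Cdkn1b between the same TSC libraries. The summed TPM of 9 differentiated trophoblast markers, 6 of them in the table and led by Hand1 and Cdkn1c (itself a CDK inhibitor of the G1/S list), was 9591 and 8753 on day 2 and 17125 and 15234 on day 7, with 9525 and 16477 in normoxia. Hand1 made up most of this sum, at 8568 and 7234 TPM on day 2 and 14763 and 12872 on day 7. Ascl2 went the other way, from 16.4 and 10.8 to 5.91 and 5.46 TPM, as did Gcm1, at under 2 TPM, and Syna overlapped between the days. Prl3d1 was higher on day 7 (3.22 and 6.53 TPM) than on day 2 (0.50 and 0.83). Tpbpa, Prl3b1 and Ctsq, markers of mature trophoblast, were not in the TSC table. The 6 TSC markers summed to 1103 and 1105 in normoxia, 952 and 1210 after 2 days and 752 and 662 after 7 days. Within that sum Tfap2c was higher on day 7 (488 and 463 TPM) than on day 2 (383 and 404), while Cdx2 went from 88.0 and 169 to 40.3 and 35.1, Eomes from 271 and 469 to 142 and 104 and Elf5 from 82.5 and 85.1 to 18.8 and 14.7. The part of these markers and of the hypoxia genes in the change of Cdkn1b was not tested. The 2 day 2 libraries differed in feeder markers (545 and 2050) and were at the same level of Cdkn1b.

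In ESCs, Cdkn1b was at 50.6 and 51.0 TPM in normoxia, 58.9 and 95.1 after 2 days and 75.5 and 73.5 after 7 days. All 4 hypoxic libraries were above the normoxic ones, and the log2 fold changes were 0.55 ± 0.20 on both days (adjusted p = 0.94 and 0.51). In XEN cells, where it was at 203 to 313 TPM, the libraries of all conditions overlapped.

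Cdkn1a was highest in the first normoxic TSC library. TSC libraries were at 363 and 194 TPM in normoxia, 150 and 180 after 2 days and 278 and 238 after 7 days. The day 2 libraries were the lowest, with a log2 fold change from normoxia of -0.69 ± 0.30 (adjusted p = 0.39) that was -0.24 without the first normoxic library. From day 2 to day 7 Cdkn1a was higher by 0.64 ± 0.30 (adjusted p = 0.22), the opposite direction from Cdkn1b. With median-ratio scaling, this difference was 0.93 (adjusted p = 0.095) and passed, so that 1 member was then called higher and 1 lower.

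In ESCs, Cdkn1a was at 42.2 and 39.4 TPM in normoxia, 40.8 and 83.1 after 2 days and 57.7 and 47.1 after 7 days. The second day 2 library stood apart, and it was also the highest ESC library in Cdkn1b, Mdm2 (122 TPM against 81.4 to 98.3) and Ccng1 (511 against 356 to 452). Without the first day 2 library, Cdkn1a and Cdkn1b passed the test on day 2 (log2 fold changes 1.02 and 0.90, limma adjusted p = 0.028 and 0.025), and without the second they did not (-0.0013 and 0.21). In XEN cells Cdkn1a was at 346 and 195 TPM in normoxia, 270 and 212 after 2 days and 190 and 199 after 7 days, with overlap between normoxia and either day.

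Trp53 was lower in hypoxic TSCs. It was at 358 and 353 TPM in normoxia, 223 and 267 after 2 days and 221 and 211 after 7 days, and the 4 hypoxic libraries were all below the normoxic ones. The log2 fold changes were -0.54 ± 0.17 on day 2 and -0.72 ± 0.17 on day 7 (adjusted p = 0.29 and 0.23), and neither passed the test. The feeder markers, at 3692 and 485 in the 2 normoxic libraries and 442 to 2050 in the hypoxic ones, were not tested for a part in these values. The change on day 7 was -0.52 with median-ratio scaling. In ESCs Trp53 was at 520 to 649 TPM, with overlap in each comparison. In XEN cells it was at 114 and 99.3 in normoxia, 124 and 120 after 2 days and 104 and 95.1 after 7 days, and the day 2 libraries were the highest by a small margin.

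No p53 target among the members passed the test. Ccng1 in XEN cells was at 1827 and 1377 TPM in normoxia, 1586 and 1223 after 2 days and 951 and 1051 after 7 days, with the day 7 libraries below all others. The log2 fold change on day 7 was -0.67 ± 0.21 (adjusted p = 0.44). Mdm2 in XEN cells was at 179 and 118, then 158 and 118, then 109 and 114, and day 7 was again lowest, by -0.38 ± 0.24 (adjusted p = 0.68). Without the first normoxic library the log2 fold change of Mdm2 was -0.08, and without the second it was -0.68. Phlda3 in XEN cells was at 907 and 592, then 652 and 929, then 562 and 635, with overlap between day 7 and normoxia.

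In TSCs, Mdm2 was at 458 and 288 TPM in normoxia, 289 and 219 after 2 days and 296 and 215 after 7 days, and Ccng1 at 1753 and 1261, then 1204 and 1129, then 1569 and 1191. The first normoxic library was highest in both, and the log2 fold change of Mdm2 on day 2 went from -0.53 to -0.20 without it. Phlda3 in TSCs was at 1054 and 857, then 953 and 814, then 1251 and 1012, where the day 7 libraries were above those of day 2 and overlapped with normoxia. In ESCs, Mdm2 and Ccng1 overlapped between normoxia and hypoxia, and Phlda3 was at 196 and 195 in normoxia, 203 and 202 after 2 days and 198 and 155 after 7 days.

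Cdkn1a, Mdm2 and Ccng1 varied together from library to library. With each gene centred on the mean of its cell type, Pearson's r over 18 libraries was 0.86 for Mdm2 and Ccng1, 0.79 for Cdkn1a and Ccng1 and 0.75 for Cdkn1a and Mdm2. Phlda3, also a p53 target among the members, had a lower r, of 0.49 with Cdkn1a, 0.40 with Mdm2 and 0.50 with Ccng1. Within cell types, the values of Phlda3 were 0.17, 0.24 and -0.002 (ESCs), 0.65, 0.39 and 0.71 (TSCs) and 0.60, 0.50 and 0.51 (XEN cells). Trp53 itself had an r of 0.16 with Cdkn1a, 0.48 with Mdm2 and 0.29 with Ccng1. Within cell types these were -0.68, -0.33 and -0.38 (ESCs), 0.31, 0.61 and 0.37 (TSCs) and 0.59, 0.61 and 0.56 (XEN cells). Within cell types, r between Mdm2 and Ccng1 was 0.92 (ESCs), 0.87 (TSCs) and 0.92 (XEN cells) over 6 libraries each. These are descriptions over libraries that share conditions and scaling. The p53 decamer shown above stood in a promoter of Cdkn1a and in those of Mdm2 and Ccng1. It also stood in that of Trp53, whose r with these 3 genes was lower, and the promoter of Phlda3 held none.

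Of 10071 genes tested in all cell types, those most like a member over the 18 centred libraries were named. For Ccnd2 they were Rnd3 (r = 0.92) and Dpysl3 (0.89), for Cdkn1b Odf2l (0.93) and Rad50 (0.91), and for Ccnd3 Asf1b (0.91) and Tesk2 (0.88). For Mdm2 they were Tulp4 (0.91) and Smcr8 (0.88), for Ccng1 Uhrf1bp1l (0.88) and Slc25a44 (0.87), and for Cdkn1a Srxn1 (0.88) and Clic1 (0.86). For Ccne1 they were Utp18 (0.87) and Dnaaf5 (0.85), for Ccnd1 Lrpprc (0.84) and Gcsh (0.84), for Trp53 Cnot11 (0.84) and Mak16 (0.82), and for Phlda3 Tbc1d2 (0.84) and Dedd2 (0.81).

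All 10 members passed the filter on low values in each cell type. A gene was called at a fold change over 1.5 with an adjusted p of limma no higher than 0.1. In ESCs no member was called on day 2, on day 7 or between them, where 0.0%, 0.758% and 0.179% of all genes were called, and 1, 2 and 0 members had an unadjusted p under 0.05, beside 5.05%, 8.04% and 4.26% of all genes. In TSCs, 0 members were called on day 2 and 0 on day 7 (0.2% and 0.385% of all genes), and 1 was called from day 2 to day 7, where 16.2% of all genes were. An unadjusted p under 0.05 was seen for 2 members in each of these 3 comparisons, beside 13.1%, 10.4% and 27.9% of all genes. In XEN cells no member was called on day 2, on day 7 or between them (0.0%, 0.11% and 0.0367% of all genes), and 1, 4 and 0 members had an unadjusted p under 0.05, beside 7.77%, 9.01% and 11.9% of all genes. Voom on the recovered reads also called Cdkn1b in TSCs from day 2 to day 7 and no member in the other 8 comparisons.

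Members whose libraries did not overlap are read against the share of all genes for which this holds. In ESCs they were 5 of 10 on day 2, 4 on day 7 and 2 between the days, against 30.8%, 40.5% and 24.0% of all genes. In TSCs they were 5, 5 and 6 of 10, against 47.4%, 41.3% and 59.3%. In XEN cells they were 4, 5 and 7 of 10, against 41.0%, 41.3% and 47.7%. The 5 separated TSC members on day 7 (Ccnd1, Ccnd3, Ccne1, Cdkn1b and Trp53) were all lower, as were 78.2% of all separated genes in that comparison. So were the 7 in XEN cells from day 2 to day 7 (Ccnd1, Ccne1, Cdkn1a, Trp53, Mdm2, Ccng1 and Phlda3), beside 54.4% of all separated genes. The median log2 fold change of the members was -0.47 on day 7 in TSCs and -0.34 on day 7 in XEN cells, where that of all genes was -0.18 and -0.03. In TSCs from day 2 to day 7 it was -0.16 for the members and -0.24 for all genes.

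**Figure D4:**
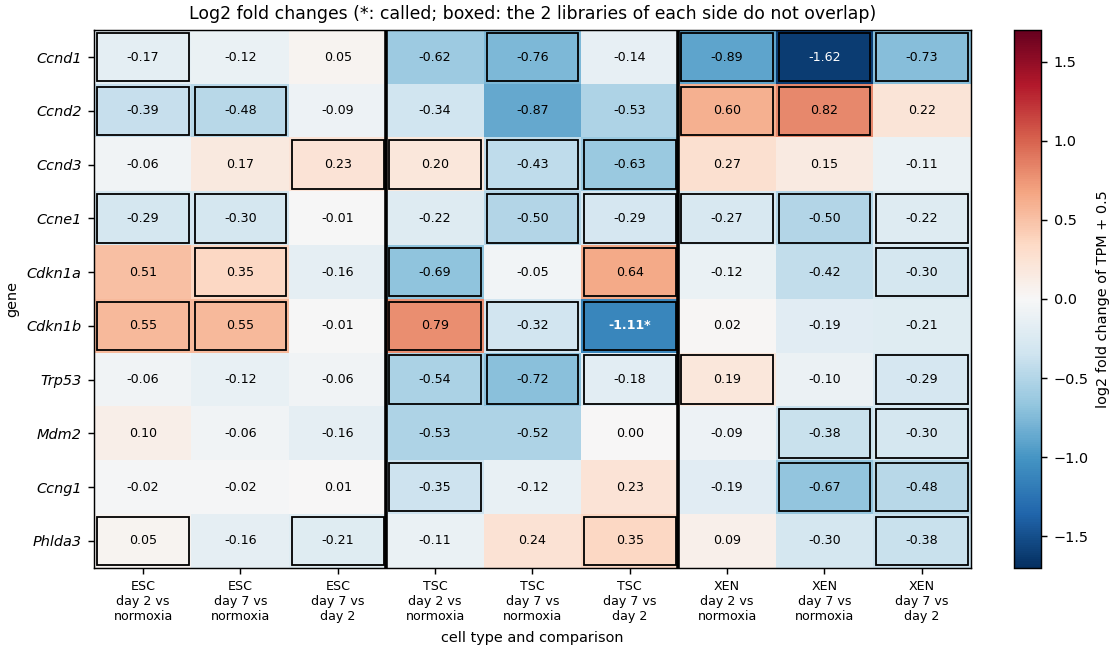
Log2 fold changes of TPM plus 0.5 for the 10 genes (rows) in 3 comparisons per cell type (columns), from blue (lower) to red (higher). A star marks the single call, Cdkn1b in TSCs from day 2 to day 7 (-1.11), and a box marks comparisons whose libraries do not overlap. The lowest value is Ccnd1 in XEN cells on day 7, at -1.62, and the highest Ccnd2 there, at 0.82.

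Genes of the wider G1/S and p53 lists passed the test in TSCs from day 2 to day 7, a comparison in which 16.2% of all genes were called and 85.3% of the called genes were lower. Of 33 genes of the G1/S machinery tested there, 10 fell and 1 rose (33.3% called), most of them thus in the direction of the genes as a whole. Mybl2, a transcription factor of cell cycle genes, fell by 1.64 ± 0.29 on the log2 scale, from 174 and 118 TPM to 58.3 and 35.8 (limma adjusted p = 0.028). Tfdp2 (-1.38 ± 0.32), a partner of E2F factors, and E2f2 (-1.19 ± 0.28), an activating E2F, fell too (adjusted p = 0.049 and 0.048). E2f8, a repressive E2F, rose by 0.88 ± 0.27, from 81.7 and 77.9 to 165 and 131 TPM (adjusted p = 0.095). The median of the list was -0.46, beside -0.24 over all genes.

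Of 14 regulators of p53 tested in the same comparison, 4 fell and none rose (28.6% called), with a median of -0.48. The kinases of the DNA damage checkpoint Chek1 (-1.24 ± 0.23), Chek2 (-1.23 ± 0.25) and Atr (-0.89 ± 0.25) were among them (adjusted p = 0.031, 0.038 and 0.079). Chek1 was at 18.8 and 20.8 TPM on day 2 and 7.61 and 8.61 on day 7. Of 38 p53 targets other than the members, 4 fell and 2 rose, and the median was -0.41. The share of these targets that was called, 15.8%, was near the 16.2% of all genes. Ccng2, a relative of Ccng1, fell by 2.02 ± 0.38, from 58.1 and 71.8 to 18.9 and 12.8 TPM (adjusted p = 0.032), while Ccng1 was not called. Against normoxia, Ccng2 was higher by 1.75 ± 0.38 on day 2, without a call, and differed by -0.27 ± 0.38 on day 7. Ckap2 and Psrc1, which act on the mitotic spindle, fell by 1.39 ± 0.28 and 1.26 ± 0.32. Sfn, which encodes 14-3-3 sigma and is abundant in epithelia, rose by 1.72 ± 0.29, from 2307 and 3499 to 9274 and 9395 TPM (adjusted p = 0.025). Sesn2, a stress-induced sestrin, rose by 0.80 ± 0.25 (adjusted p = 0.094).

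These counts depend on the scaling and on single libraries. With median-ratio scaling, 4 genes of the G1/S list fell and 1 rose, 2 regulators of p53 fell, and 2 other p53 targets fell and 2 rose. Over all genes this scaling moved the calls from 296 higher and 1723 lower to 738 higher and 968 lower. Without the first day 2 library or without the second day 7 library, no gene of the 3 lists was called, and without the first day 7 library 2 of the G1/S list were. The share of all genes called with a library left out is not given here to read these counts against. The differentiated trophoblast and TSC markers given beside Cdkn1b moved between the same libraries, and their part was not tested.

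In the other 8 comparisons, no gene of the 3 lists was called by limma as fitted or by voom. Under other alternatives 1 to 3 of the other p53 targets were called in ESCs on day 7 (4 of 18 alternatives), in TSCs on day 2 (2), and in ESCs on day 2 and between the days (1 each). The share of all genes called under those alternatives is not given here. At an unadjusted p under 0.05 in limma there were between 0 and 8 genes of each list. The other p53 targets had 8 of 37 in XEN cells between the days and 6 of 37 on day 2, beside 11.9% and 7.77% of all genes. In TSCs on day 2 there were 6 of 14 p53 regulators and 6 of 33 G1/S genes, beside 13.1% of all genes. The remaining counts ran from 0 to 5. The medians of the G1/S list were -0.04 and -0.05 on days 2 and 7 of ESCs, 0.18 and -0.36 on those of TSCs, and -0.04 and 0.08 for XEN cells. Those of the p53 targets were 0.05 and -0.05 for ESCs, 0.08 and -0.23 for TSCs, and -0.08 and -0.19 for XEN cells. Those of the p53 regulators were -0.04 and -0.07 for ESCs, 0.36 and -0.25 for TSCs, and 0.13 and -0.04 for XEN cells.

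**Figure D5:**
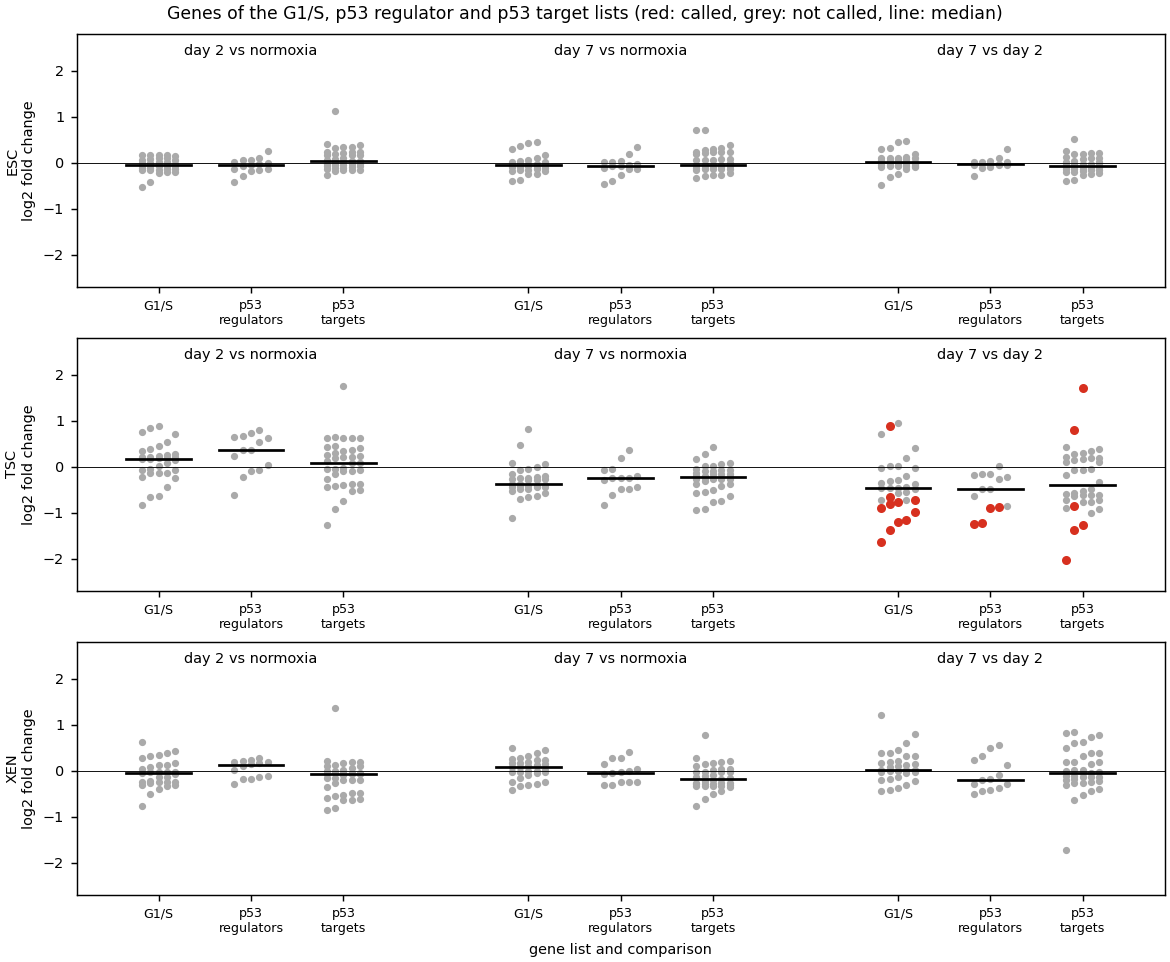
Log2 fold changes of the genes of the G1/S, p53 regulator and p53 target lists (points) in 3 comparisons per cell type, with called genes in red and the median of each list as a line. Red points are seen in TSCs from day 2 to day 7 alone, where the medians are -0.46, -0.48 and -0.41.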

How the data were processed

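Bulk RNA-seq of ESCs, TSCs and XEN cells was analysed (18 libraries, 9 groups of 2). The authors trimmed reads (cutadapt 2.4), aligned them to mm10 (STAR 2.7.5a), counted them on genes (featureCounts) and deposited TPM in 1 table per cell type, tools being named in the submitters' processing notes. Columns of day 0 were taken as normoxia. TPM times gene span fell within 0.05 of whole multiples of 1 step for a median of 98.8% of genes per library, against 9.8% to 10.7% with exon length, so whole reads were recovered with GENCODE gene models and used for depth, for exon-length TPM and for voom.

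Genes that exceeded a TPM of 0.4 in 2 or more of the 6 libraries per cell type entered the fit of log2(TPM + 0.5) by limma 3.58.1 (R 4.3.3) with a mean-variance trend, without a replicate block, on all 6 libraries. Fold changes are on this scale, and Benjamini-Hochberg adjustment was over all genes tested. Groups of 2 libraries cannot give a two-sided p under 0.333 in an exact permutation test. No test was made between cell types. Levels, recovered reads and promoters were handled in Python 3.11.15, and the scripts were tested on simulated data.

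The members and the gene lists were chosen with earlier results of these data known. Named were all members, at most 3 called genes per direction, list and comparison, and the 2 genes most like each member. Alternatives were pseudocounts of 0.1 and 1, no filter or TPM above 1, median-ratio scaling, a replicate block, no trend, an adjusted p of 0.05, only the 4 libraries compared, exon-length TPM, voom and each library left out. The block with crossed day 2 numbers was chosen after seeing the data. The authors' own test was edgeR's and was not run here.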

Additional observations from a re-analysis of the deposited data

Results flagged for a closer look

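Cdkn1b in TSCs differed between the days of hypoxia, by -1.11 on the log2 scale from day 2 to day 7 (limma, adjusted p = 0.033), with both day 7 libraries below both day 2 libraries.

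In the following cases every library of 1 cell type moved one way and every library of another the opposite way in the same comparison, and the difference was not tested because the tables were normalized separately. Ccnd2 was higher in hypoxic XEN cells and lower in hypoxic ESCs, with log2 fold changes that differed by 0.99 on day 2 and 1.30 on day 7. Cdkn1b on day 7 was above normoxia in ESCs and below it in TSCs, a difference of 0.87, with TSC libraries at 47.6 and 44.5 TPM against 48.4 and 68.6 and a TSC value that went from -0.32 to -0.13 with median-ratio scaling and to -0.07 without the second normoxic library. Trp53 on day 2 was above normoxia in XEN cells and below it in TSCs, a difference of 0.73. From day 2 to day 7, Ccnd3 was higher in ESCs and lower in TSCs, a difference of 0.86, with the TSC value at -0.35 in place of -0.63 after median-ratio scaling. From day 2 to day 7, Cdkn1a was higher in TSCs and lower in XEN cells, a difference of 0.94. Phlda3 over the same days was higher in TSCs and lower in ESCs and XEN cells, with differences of 0.56 and 0.73. Between 24.0% and 59.3% of all genes had libraries without overlap in a comparison. Groups of 2 libraries were too small to test for outlying libraries.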

How the results depend on the processing

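The number of members called in TSCs from day 2 to day 7 was 1, and it was 2 (Cdkn1b and Cdkn1a) with median-ratio scaling and with only the 4 libraries compared. It ran from 0 to 2 when 1 library was left out: 0 without the first day 2 or either day 7 library, and 2 without either normoxic library. In ESCs on day 2 it ran from 0 to 2 when 1 library was left out, and was 2 without the first day 2 library. In the other 7 comparisons no member was called under any of the 18 alternatives. The cause of these differences was not tested. The share of all genes called with a library left out, or with only the 4 libraries compared, is not given here to read these counts against.

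The deviations of libraries with the same replicate number had correlations between -0.46 and 0.27. A group of 2 libraries gives 1 deviation per gene, so this cannot tell whether the numbers pair the libraries. With the replicate block, 1 member was called in TSCs from day 2 to day 7 (Cdkn1b, adjusted p = 0.050) and 0 in the other 8 comparisons, and the other p53 targets called there went from 6 to 11. With the day 2 numbers crossed in the block, 2 members were called in TSCs from day 2 to day 7 and 0 elsewhere. The share of all genes called with either block is not given here. The log2 fold change of Cdkn1b there was between -1.12 and -0.83 under the other settings and between -1.16 and -1.07 with a library left out.

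In TSCs from day 2 to day 7, calls of the G1/S list, p53 regulators and other p53 targets went from 11, 4 and 6 to 5, 2 and 3 at an adjusted p of 0.05. The share of all genes called at that threshold is not given here to read these counts against.

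With 2 libraries per group, a lone library left in a group was assumed to vary like the other groups. Members held at least 113 reads in a library. Over the genes as a whole, the spread between replicates was 27.7 to 219 times that of counting (chi-square per degree of freedom). This was not worked out for single members. Some differed little between replicates, such as Phlda3 in normoxic ESCs, at 196 and 195 TPM on 1865 and 2625 reads.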
